A study of Mus musculus with 12 samples.

Results

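The cytosolic ribosomal protein genes were taken as the rows of the count table whose symbol follows the pattern Rpl or Rps with a number, or Rpsa, Rplp0, Rplp1 and Rplp2. The rule found 80 of the 15089 genes. Of these, 44 encode proteins of the large (60S) ribosomal subunit, 31 encode proteins of the small (40S) subunit, and 5 are paralogs of such a protein (Rpl3l, Rpl7l1, Rpl22l1, Rps4l and Rps27l). The rule used names only and no measured value, and all 80 genes passed the filter on low counts.

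RNA from astrocytes of the mouse cortex on postnatal day 16 was sequenced in 12 libraries, 4 of each genotype. Every mouse was NexCre+/-, and this Cre drives recombination in post-mitotic glutamatergic neurons and not in astrocytes. ctrl-2 mice were Nmnat2 f/+, cKO;S/+ mice were Nmnat2 f/f with Sarm1+/-, and cKO;S/S mice were Nmnat2 f/f with Sarm1-/-. The series' design gives the ctrl-2 mice Sarm1+/-, while the study's text describes this control in places without a Sarm1 deletion, so their Sarm1 alleles are uncertain. Astrocytes were enriched with beads against the surface antigen ACSA-2. Nmnat2 makes NAD in neurons and Sarm1 consumes it, and the design asks how losing the first, with 1 or no working copy of the second, changes neighbouring astrocytes.

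Total counts ran from 16506627 to 22159404 per library, and the precursor of ribosomal RNA, Rn45s, took 7.03% to 8.41% of them. The libraries held strong astrocyte signal: the 20 astrocyte markers averaged 1722 ± 86.8 (ctrl-2), 1528 ± 144 (cKO;S/+) and 1385 ± 274 CPM (cKO;S/S), as SD with n = 4, where CPM is a count scaled to the TMM-adjusted size of its library. They also held RNA of other cells, since the 20 microglia markers averaged 223 ± 72.4, 424 ± 109 and 267 ± 45.9 CPM in the same order. Nmnat2, which NexCre targets in neurons, was measured at 38.5 ± 2.90 (ctrl-2), 22.8 ± 4.37 (cKO;S/+) and 30.1 ± 9.54 CPM (cKO;S/S). All 4 cKO;S/+ libraries lay below all 4 ctrl-2 libraries in it, while the cKO;S/S libraries, at 42.6, 19.9, 31.2 and 26.5 CPM, overlapped both. The labels do not state that each library came from a separate mouse, so the p-values measure the spread between these libraries.

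A ribosome is built from 2 subunits, each a set of proteins on a core of ribosomal RNA, and the proteins are made in matching amounts from genes scattered over the genome. Transcripts of these genes begin with a run of pyrimidines, the terminal oligopyrimidine tract, through which the mTORC1 pathway controls their translation. In the brain their level differs between cell types, and they are among the most abundant messenger RNAs of any cell. Most of them have left processed pseudogenes in the mouse genome, so reads of a gene and its copies can be hard to separate.

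To show what the members share in sequence, start regions from RefSeq (build GRCm38.p6) were read for the 60 members that matched an entry. The runs below cover 15 bases before the annotated start and 15 from it on, with the motif CTTTC in capitals. Among members with an entry, they belong to those with the smallest p-values in the comparison of cKO;S/+ with ctrl-2 and to 2 proteins of the ribosomal stalk. Rps29, which had the smallest p-value of all members, matched no entry.
Rpl13a: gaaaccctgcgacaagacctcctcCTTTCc
Rpl10a: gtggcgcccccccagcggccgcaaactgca
Rpl27a: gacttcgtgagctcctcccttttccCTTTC
Rpl12: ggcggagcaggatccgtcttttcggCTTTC
Rpl35a: gcggggcgtgcgtcccacaaggccgcgcgg
Rplp2: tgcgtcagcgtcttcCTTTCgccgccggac
Rplp0: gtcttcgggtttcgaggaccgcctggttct
Of the 7, Rpl13a, Rpl27a, Rpl12 and Rplp2 hold CTTTC in this window and the others do not. In the 50 bases before to 50 after the start, on the strand of the gene, CTTTC stood in 28 of 60 members (46.7%) and in 9.75% of all 11297 genes with an entry. CCGGAAG, the core recognised by ETS family factors, stood on either strand of the whole 300 bases in 23 of 60 members (38.3%) and in 16.4% of all genes. These were 2 of 25 combinations of motif and window searched and were picked after all had been seen, so the shares are descriptions. RefSeq starts need not be the starts used in these cells.

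The level of each gene was compared per kilobase of exonic length in ctrl-2. Rplp1 and Rplp2, acidic proteins of the stalk that recruits translation factors, stood highest at 375 ± 45.1 and 373 ± 56.5 CPM per kb (SD, n = 4). Rpl23a, which lines the exit of the peptide tunnel, followed at 339 ± 18.1 CPM per kb. The ranges of the ctrl-2 libraries overlapped between these 3 genes. Of the 80 members, 62 lay between 50 and 250 CPM per kb and 8 lay above 250, bounds set after the levels were seen. Rpl23a stood at 192, 203, 183 and 180 CPM in ctrl-2 and at 233, 191, 222 and 200 CPM in cKO;S/+, with overlap, and cKO;S/S, at 199, 165, 207 and 184 CPM, overlapped both.
The lowest were Rpl3l, at 0.71 ± 0.251 CPM per kb, Rps27, at 1.52 ± 0.602, and Rpl34, at 1.53 ± 0.425. Rpl3l is the striated muscle paralog of Rpl3, and its ctrl-2 libraries held 29, 12, 26 and 23 reads. Rps27 and Rpl34 belong to every ribosome, yet their ctrl-2 libraries held only 18, 15, 10 and 28 reads and 31, 19, 18 and 17 reads. Rpl34 stood at 1.48, 0.907, 1.01 and 0.825 CPM in ctrl-2 and at 1.56, 0.973, 0.9997 and 0.994 CPM in cKO;S/+, and the groups overlapped. No 75-base stretch of the Rps27 coding sequence is unique among mouse transcripts, and 39.8% of those of Rpl34 are. Rpl23a, at 339 CPM per kb among the highest members, has no unique stretch either. The part of shared sequence in these levels was not tested.

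**Figure D1:**
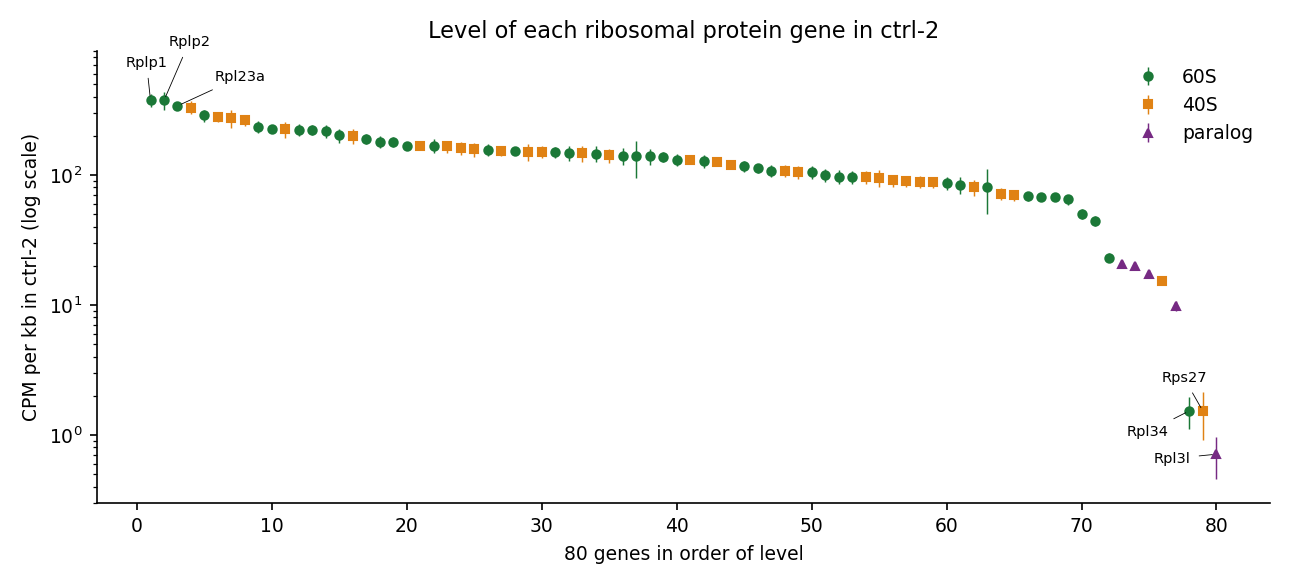
Level of each of the 80 genes in ctrl-2, in CPM per kb on a log axis, in order from highest to lowest; points are means of 4 libraries and bars are SD. Rplp1, Rplp2 and Rpl23a stand at the top between 339 and 375 CPM per kb, while Rpl34, Rps27 and Rpl3l stand alone at the bottom below 2.

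The members moved together from library to library. Their summed share of all counts was 0.894%, 0.969%, 0.785% and 0.788% in ctrl-2 replicates 4, 5, 6 and 7. It was 1.08%, 0.905%, 0.999% and 0.942% in cKO;S/+ replicates 8, 9, 10 and 14. In cKO;S/S replicates 15, 16, 17 and 18 it was 0.961%, 0.736%, 0.968% and 0.903%. The means were 0.859 ± 0.0891%, 0.981 ± 0.0752% and 0.892 ± 0.108% (SD, n = 4), and the 3 ranges overlapped.
Within a genotype, single libraries were high or low for most members at once. Replicate 5 was the highest ctrl-2 library for 69 of the 80 members and replicate 7 the lowest for 53. Replicate 16 was the lowest cKO;S/S library for 69 members and replicate 17 the highest for 58. In cKO;S/+, replicate 8 was the highest library for 53 members. The median member had an SD of 0.18 over the 12 libraries on the log2 scale, and of 0.07 once the movement shared by all members was taken out.
The members whose own variation stayed above 0.2 after that step, a bound set after the values were seen, were Rps27, Rplp0, Rpl29, Rpl3l, Rps4l, Rps27l and Rpl34, of which Rplp0 and Rpl29 are abundant.

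**Figure D2:**
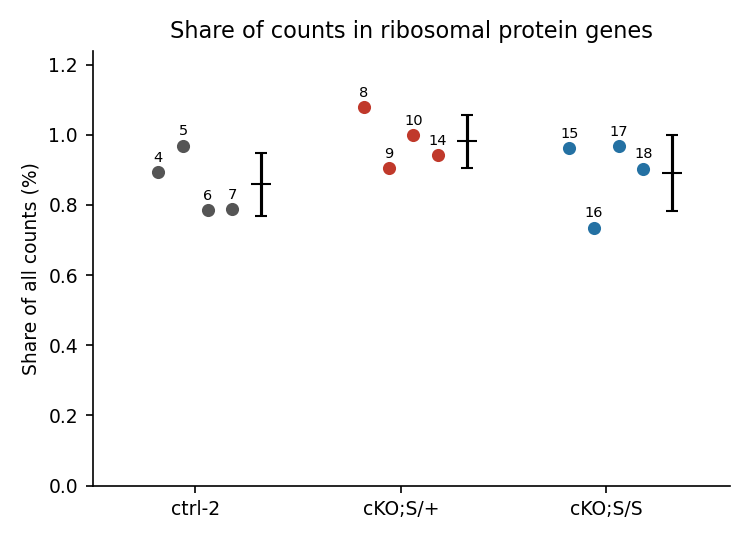
Share of all counts in the 80 genes, in percent, for each library of the 3 genotypes; numbers are replicates, and the bar beside each group is the mean with SD of 4 libraries. The cKO;S/+ libraries lie between 0.905% and 1.08%, and the other groups overlap them.

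The comparison of cKO;S/+ with ctrl-2 asks what neuronal loss of Nmnat2 does to astrocyte RNA when 1 copy of Sarm1 is left. Most members stood slightly higher in cKO;S/+, and few passed the test. The fold changes lay above 0 for 75 of 80 members, against 49.6% of all genes, and their median was 0.22 on the log2 scale, against -0.002 for all genes. Rps29, Rpl13a and Rpl10a were called higher and 0 members lower (adjusted p under 0.05, edgeR's quasi-likelihood test), where 5.9% of all genes were called higher and 1.38% lower. At an unadjusted p under 0.05, 40 members were higher and 0 lower, where all genes gave 14.3% and 9.25%. Calls at the adjusted threshold made up a smaller share of the members than of all genes in this fit. By the likelihood ratio test and DESeq2 they made up a larger share of the members, and by limma-voom and edgeR's robust quasi-likelihood test a smaller one. The likelihood ratio test of edgeR called 13 members and 1219 of all genes higher, and DESeq2 called 15 and 1306. For limma-voom these counts were 2 and 786, and for the robust test 3 and 896. The count of 40 fell to 17 without ctrl-2 replicate 7, to 18 without ctrl-2 replicate 6, to 20 without cKO;S/+ replicate 8 and to 21 without cKO;S/+ replicate 10. It rose to 55 without ctrl-2 replicate 5, to 48 without cKO;S/S replicate 16 and to 47 without cKO;S/+ replicate 9. In the remaining fits that left out 1 library it was 38 to 40.
All 4 cKO;S/+ libraries lay above all 4 ctrl-2 libraries for 11 members, where 6.53% of all genes did so, and for 0 members below, where 4.8% did. These members were Rpl10a, Rpl13a, Rpl27a, Rpl31, Rplp1, Rps14, Rps21, Rps23, Rps27a, Rps28 and Rps29. In such bulk RNA, fewer cells of a type and less RNA per cell cannot be told apart.

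Rps29 (chr12:69157722-69159186, GRCm38.p6), a zinc-binding protein of the small subunit, stood at 65.1, 64.3, 56.1 and 53.8 CPM in ctrl-2 and at 85.6, 80.6, 90.6 and 73.0 CPM in cKO;S/+. Every cKO;S/+ library lay above every ctrl-2 library, and cKO;S/S, at 68.0, 61.1, 79.1 and 61.0 CPM, overlapped both. Between cKO;S/+ and ctrl-2 the log2 difference was 0.46, with an SE of 0.0994 and an adjusted p of 0.0227 (edgeR).
Rpl13a (chr7:45125563-45128745), a large subunit protein that in human myeloid cells also acts in a complex silencing translation after interferon gamma, stood at 226, 256, 200 and 204 CPM in ctrl-2 and at 322, 256, 340 and 285 CPM in cKO;S/+. The groups touched without crossing, with ctrl-2 replicate 5 and cKO;S/+ replicate 9 at nearly the same level. Its log2 fold change was 0.44 (SE 0.113, adjusted p = 0.0352, edgeR).
Rpl10a (chr17:28328471-28331033), which forms the flexible stalk by which spent transfer RNA leaves the ribosome, stood at 57.3, 60.4, 51.6 and 54.7 CPM in ctrl-2 and at 75.2, 66.8, 75.8 and 64.5 CPM in cKO;S/+. Its groups did not overlap. Its log2 fold change was 0.33 (SE 0.0932, adjusted p = 0.0487, edgeR).
No 75-base stretch of the coding sequence of Rps29 or Rpl10a is unique among mouse transcripts, and whether their counts hold reads of copies was not tested.
The next members by p-value did not pass. Those given here are of the large subunit, and Rps12 and Rps23 of the small subunit followed closely (adjusted p = 0.0688 and 0.0695, edgeR). Rpl27a stood at 118, 118, 101 and 93.5 CPM in ctrl-2 and at 152, 126, 143 and 128 CPM in cKO;S/+, without overlap (log2 fold change 0.35, adjusted p = 0.053, edgeR). Rpl35a stood at 39.6, 45.4, 38.1 and 40.05 CPM in ctrl-2 and at 58.9, 49.6, 53.9 and 45.0 CPM in cKO;S/+ (log2 difference 0.35, adjusted p = 0.0648). Rpl12, at the base of the stalk, stood at 93.0, 104, 80.6 and 77.1 CPM in ctrl-2 and at 132, 111, 125 and 97.9 CPM in cKO;S/+ (log2 difference 0.39, adjusted p = 0.0672). For Rpl35a and Rpl12 the lowest cKO;S/+ library, replicate 14, lay below the highest ctrl-2 library, replicate 5.

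**Figure D3:**
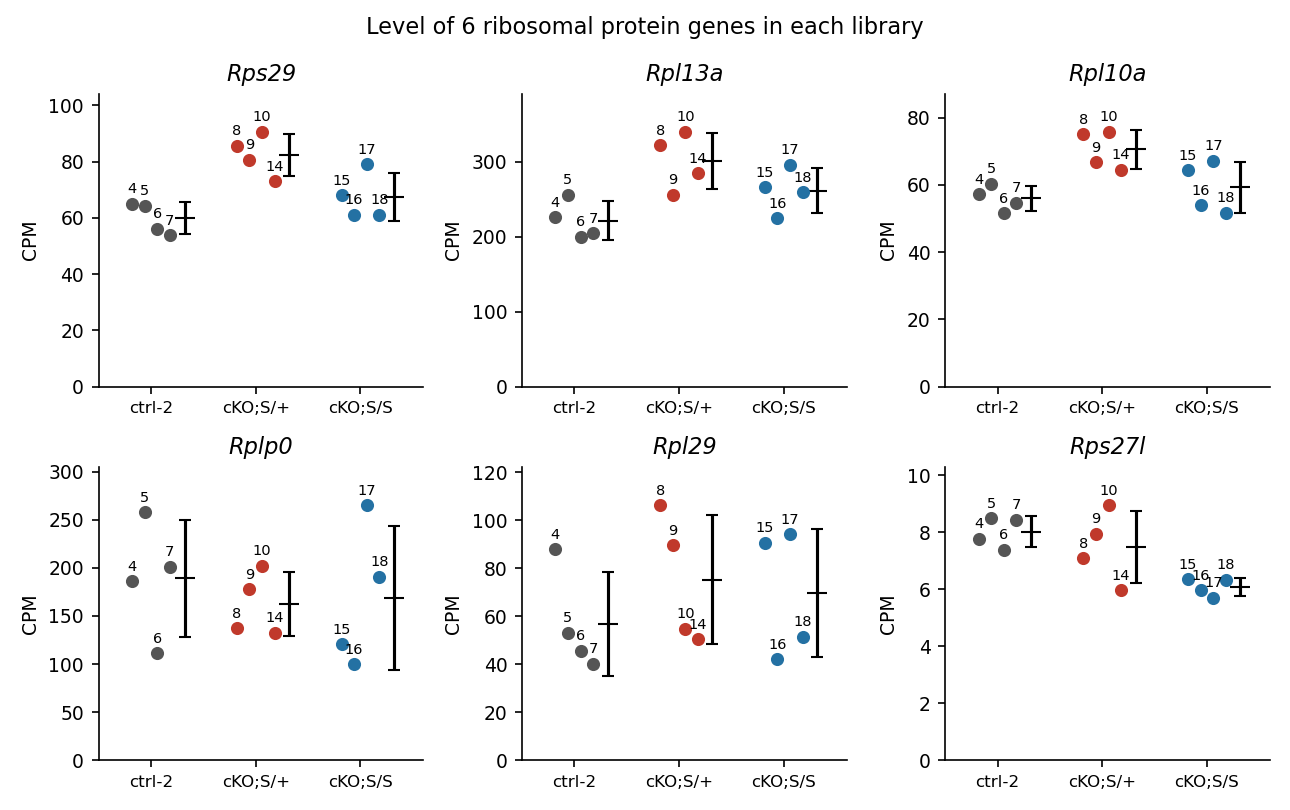
CPM of 6 genes in each library of the 3 genotypes; numbers are replicates, and the bar beside each group is the mean with SD of 4 libraries. Rps29, Rpl13a and Rpl10a lie higher in cKO;S/+ than in ctrl-2, Rplp0 and Rpl29 spread widely within every group, and Rps27l lies lower in cKO;S/S than in ctrl-2.

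These 3 calls did not outlast the removal of single libraries. Without ctrl-2 replicate 4, 6 or 7, or without cKO;S/+ replicate 8 or 10, 0 members were called, and of all 15089 genes 0 were called in each of these cases except without cKO;S/+ replicate 10, where 33 were higher and 4 lower. Without ctrl-2 replicate 5, 10 members were called higher, beside 998 of all genes higher and 209 lower. Without cKO;S/+ replicate 14, 16 members were, beside 1604 of all genes higher and 974 lower, so calls over all genes rose in that fit too. The median of the members stayed between 0.16 and 0.29 in all of the 12 fits that left out 1 library.

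The shift of the members ran along with other RNA in the same libraries. The mean of the 20 microglia markers was 158 to 322 CPM in the ctrl-2 libraries and 288 to 527 CPM in cKO;S/+, and 16 of the 20 were called higher and 0 lower, with a median log2 fold change of 1.03. Immediate early genes switch on within minutes when tissue is taken apart. Of 22 measured, 17 were called higher and 0 lower, and their mean was 115 to 202 CPM in ctrl-2 and 230 to 414 CPM in cKO;S/+. The oligodendrocyte markers had a median of -0.62, with 0 of 14 called and 0 above 0, and the markers of mural cells and fibroblasts one of -0.49, with 0 of 14 called. The endothelial markers had a median of 0.22, with 12 of 13 above 0 and 0 called.
Library by library, the member median was highest in cKO;S/+ replicates 8 and 10, which also held the highest microglia marker levels, and low in ctrl-2 replicates 6 and 7, which held the lowest. It was lowest in cKO;S/S replicate 16, whose microglia marker mean of 251 CPM lay within the ctrl-2 range. With the microglia markers as a covariate the median of the members was -0.05, with the immediate early genes -0.09 and with the oligodendrocyte markers 0.17. In each of these 3 fits 0 members and 0 of all genes were called. The immediate early gene means did not overlap between cKO;S/+ and ctrl-2, and the microglia marker means overlapped only in part. The fits with these lists therefore cannot separate such RNA from genotype. The part of other cells and of dissociation in the shift was not tested.

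**Figure D4:**
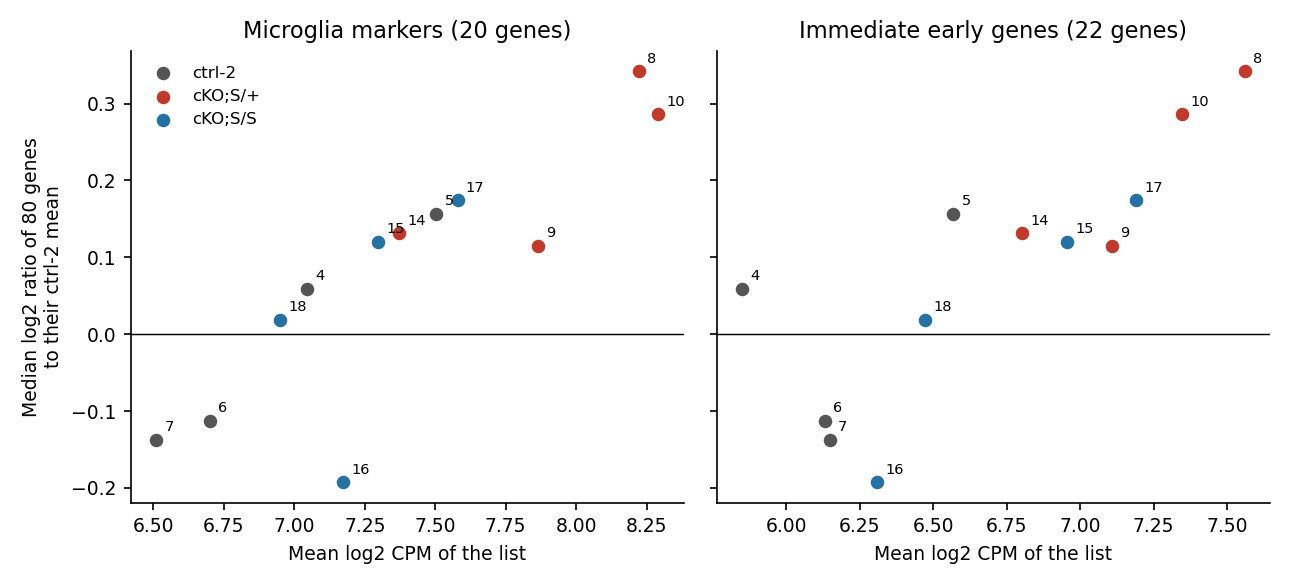
Median log2 ratio of the 80 genes to their ctrl-2 mean, in each library, against the mean log2 CPM of the 20 microglia markers (left) and of the 22 immediate early genes (right); colours are genotypes and numbers are replicates. cKO;S/+ replicates 8 and 10 lie at the upper right of both panels, and ctrl-2 replicates 6 and 7 lie low and to the left, with cKO;S/S replicate 16 the lowest point in both.

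Members of both subunits lay mostly above 0, and few of the paralogs did. The median log2 fold change was 0.22 over the 44 large subunit members, with 43 above 0, and 0.24 over the 31 small subunit members, with 31 above 0. Over the 5 paralogs it was -0.03, with 1 above 0, and the difference between these classes was not tested.
The paralogs stood beside their counterparts as follows. Rps27l, a p53 target, had a log2 fold change of -0.10 (adjusted p = 0.672, edgeR), and Rps27, its counterpart, 0.83 (adjusted p = 0.123) on few reads. Rpl22l1 stood at 9.35, 9.93, 9.41 and 9.22 CPM in ctrl-2 and at 9.13, 10.6, 8.66 and 8.67 CPM in cKO;S/+ (log2 difference -0.03, adjusted p = 0.87, edgeR). Rpl22, the counterpart, stood at 113, 123, 104 and 101 CPM in ctrl-2 and at 124, 115, 127 and 116 CPM in cKO;S/+ (log2 difference 0.13, adjusted p = 0.368). Both pairs of groups overlapped.
Rpl7l1, a nucleolar factor in 60S assembly, stood at 51.7, 56.6, 52.9 and 55.0 CPM in ctrl-2 and at 60.8, 48.1, 54.0 and 52.1 CPM in cKO;S/+, while Rpl7 stood at 276, 301, 257 and 236 CPM and at 320, 281, 296 and 288 CPM. The log2 fold changes were -0.007 and 0.15 (adjusted p = 0.969 and 0.354, edgeR), and the libraries of both genes overlapped between the groups.
Rps4l stood at 9.28, 8.53, 9.997 and 8.22 CPM in cKO;S/+ and overlapped ctrl-2, whose values are given with the next comparison (log2 difference -0.04, adjusted p = 0.882, edgeR). Rps4x, its X-linked counterpart, stood at 139, 161, 127 and 123 CPM in ctrl-2 and at 183, 149, 167 and 150 CPM in cKO;S/+ (log2 difference 0.24, adjusted p = 0.219), and the groups overlapped. Rpl3l, at 1.38, 0.573, 1.46 and 1.12 CPM in ctrl-2 and 1.22, 1.09, 1.38 and 1.27 CPM in cKO;S/+, had a log2 fold change of 0.14 (adjusted p = 0.83, edgeR) on few reads. Rpl3 stood at 254, 270, 224 and 227 CPM and at 325, 274, 299 and 257 CPM. Rpl3, which shapes the site of peptide bond formation, had 0.24 (adjusted p = 0.144, edgeR).

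The proteins of the stalk did not move alike. Rplp1 stood at 194, 190, 168 and 149 CPM in ctrl-2 and at 258, 203, 246 and 201 CPM in cKO;S/+, and the groups did not overlap (log2 fold change 0.37, SE 0.117, adjusted p = 0.0716, edgeR). Rplp2 stood at 174, 195, 150 and 140 CPM in ctrl-2 and at 252, 188, 234 and 191 CPM in cKO;S/+, and the groups overlapped (log2 fold change 0.40, SE 0.126, adjusted p = 0.0758, edgeR). Rplp0, the base on which both sit, stood at 186, 258, 111 and 201 CPM in ctrl-2, at 137, 178, 202 and 133 CPM for cKO;S/+ and, for cKO;S/S, at 121, 99.6, 265 and 191 CPM.
Its values differed more than 2-fold within ctrl-2 and within cKO;S/S, and its log2 fold change of -0.22 (SE 0.298, adjusted p = 0.699, edgeR) was the lowest of all members and the only one below 0 outside the paralogs. Rpl29, singled out after its values were seen, spread as widely: it stood at 87.9, 53.1, 45.6 and 40.2 CPM in ctrl-2, at 106, 89.5, 54.8 and 50.5 CPM in cKO;S/+ and at 90.5, 42.0, 94.0 and 51.5 CPM in cKO;S/S. Its coding sequence shares 75-base stretches with 42 annotated pseudogenes, and 14.3% of its stretches are unique.
Rpl5 and Rpl11, which carry the 5S RNA into the large subunit and can bind Mdm2 when free, had log2 fold changes of 0.20 (SE 0.103, adjusted p = 0.271, edgeR) and 0.24 (SE 0.105, adjusted p = 0.183). Rpl5 stood at 200, 223, 180 and 174 CPM in ctrl-2 and at 236, 208, 240 and 207 CPM in cKO;S/+. Rpl11 stood at 93.3, 98.9, 81.6 and 80.1 CPM in ctrl-2 and at 118, 97.7, 108 and 94.9 CPM in cKO;S/+. The libraries of both overlapped between the groups.

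**Figure D5:**
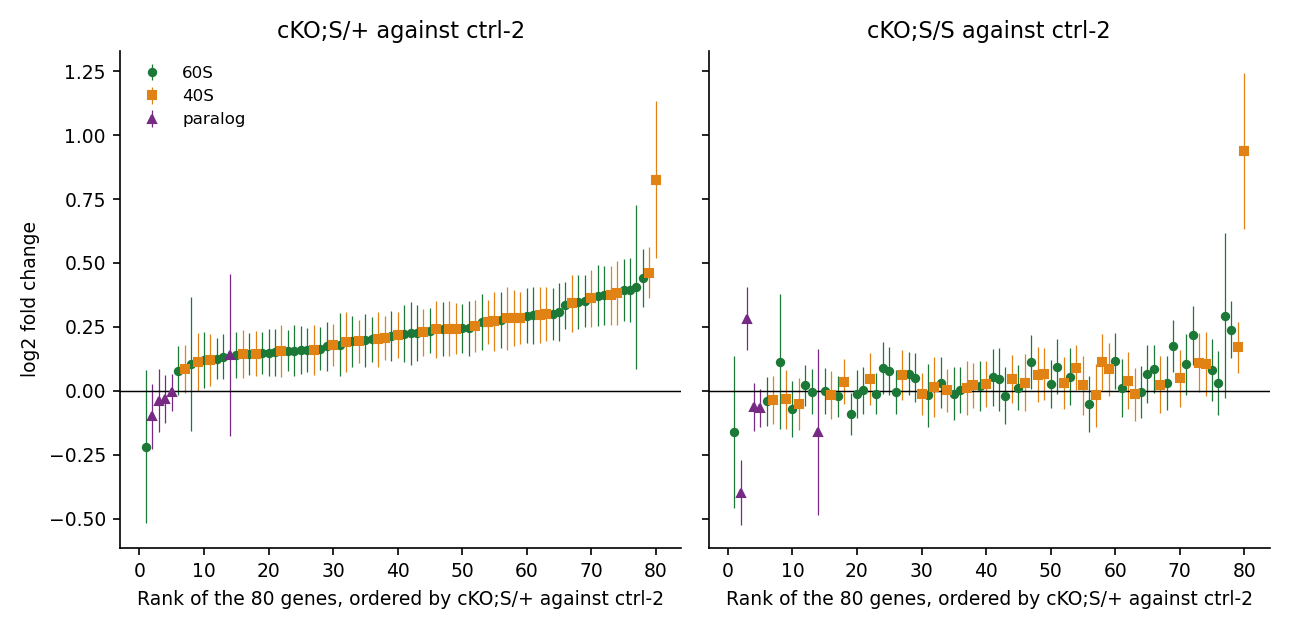
Log2 fold change of each of the 80 genes against ctrl-2, in cKO;S/+ (left) and in cKO;S/S (right), both in the order of the left panel; bars are standard errors of the fit, and colours and shapes mark the 60S, 40S and paralog genes. On the left 75 genes lie above 0 and on the right 55 do, and both panels share the ctrl-2 libraries.

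Many members share coding sequence with copies. Of 79 members with a coding sequence in the annotation, 23 have no unique 75-base stretch and 20 have at least 50% of them unique, and 74 share a stretch with at least 1 pseudogene. The median log2 fold change of cKO;S/+ against ctrl-2 was 0.27 over the first and 0.20 over the second. The cut at 50% was chosen after the values were seen.

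In the comparison of cKO;S/S with ctrl-2, which asks what is left without Sarm1, the median member lay near 0, and its sign changed when single libraries were left out. Of 80 members 55 lay above 0, where 53.3% of all genes did, with a median of 0.03 against 0.01 for all genes. By edgeR's quasi-likelihood test 0 members were called in either direction, as were 0% of all genes. At an unadjusted p under 0.05, 2 were higher and 1 lower, where all genes gave 6.79% and 4.87%, and the likelihood ratio test of edgeR, DESeq2 and limma-voom each called 0 members. Over all genes, calls numbered 33 higher and 15 lower by the likelihood ratio, and 30 higher and 21 lower by DESeq2, while limma-voom made 0.
The count above 0 ran from 30 without cKO;S/S replicate 17 to 75 without cKO;S/S replicate 16, and the median from -0.024 to 0.095 in the same fits. It was also below 0 without cKO;S/S replicate 15 (-0.0016) and without ctrl-2 replicates 6 (-0.011) or 7 (-0.017), and it was 0.083 without ctrl-2 replicate 5. No direction of the members in this comparison held under removal of single libraries.
Markers of other RNA moved here as well. The immediate early genes had a median of 0.57, with 22 of 22 above 0, the neuron markers one of 0.85, with 16 of 17 above 0, and the astrocyte markers one of -0.23, with 1 of 20 above 0, and 0 were called in each list. With the immediate early genes as a covariate the median of the members was -0.14, against -0.005 for all genes, and 0 members and 0 of all genes were called.
The 4 cKO;S/S libraries lay below all ctrl-2 libraries for 1 member, where 3.4% of all genes did, and above for 0, where 2.62% did. That member was Rps27l (chr9:66944624-66949522), at 7.78, 8.50, 7.39 and 8.45 CPM in ctrl-2 and at 6.36, 5.97, 5.70 and 6.34 CPM in cKO;S/S, with a log2 difference of -0.40 (SE 0.128, adjusted p = 0.345, edgeR). In cKO;S/+ it stood at 7.08, 7.95, 8.95 and 5.96 CPM and overlapped both groups.
Rps4l stood at 9.78, 8.35, 8.85 and 10.05 CPM in ctrl-2 and at 9.53, 10.4, 11.5 and 13.7 CPM in cKO;S/S. The groups overlapped, and the log2 difference was 0.28 (SE 0.123, adjusted p = 0.405, edgeR). Rps27 had the largest fold change, 0.94 (SE 0.305, adjusted p = 0.345, edgeR), on the few reads given above. Its 4 cKO;S/S libraries stood at 2.24, 1.32, 2.02 and 1.12 CPM and its ctrl-2 libraries at 0.859, 0.716, 0.560 and 1.36 CPM, so the groups overlapped.
The next members by p-value, with unadjusted p from 0.0538 to 0.105 (edgeR), were large subunit genes. They had stood out in cKO;S/+ too, and the control libraries are the same. Their cKO;S/S libraries stood at 266, 224, 296 and 260 CPM for Rpl13a (log2 fold change 0.24, adjusted p = 0.431, edgeR), at 217, 174, 230 and 194 CPM for Rplp1 (0.22, adjusted p = 0.483) and at 130, 104, 132 and 121 CPM for Rpl27a (0.18, adjusted p = 0.504). All of these overlapped ctrl-2.

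Between the mutant genotypes, cKO;S/+ against cKO;S/S, which asks what the last copy of Sarm1 changes, 76 of 80 members lay above 0, where 50.9% of all genes did, and their median was 0.18 against 0.004 for all genes. By edgeR's quasi-likelihood test 0 members were called, as were 0% of all genes. At an unadjusted p under 0.05, 25 were higher and 1 lower, where all genes gave 9.17% and 9.11%. The likelihood ratio test of edgeR, DESeq2 and limma-voom each called 0 members, where over all genes they called 303 higher and 173 lower, 397 and 229, and 0 in both directions. Leaving out cKO;S/+ replicate 14 gave 3 members called higher in the main test, beside 865 of all genes higher and 812 lower, a larger share of all genes than of the members.
The groups did not overlap for 5 members, all higher in cKO;S/+ (Rpl4, Rpl10, Rpl38, Rps13 and Rps14), where 2.66% of all genes were higher without overlap and 2.82% lower. Rps14, which lines the path of messenger RNA in the small subunit, stood at 91.1, 74.9, 76.5 and 73.7 CPM in cKO;S/+ and at 66.7, 52.9, 71.0 and 63.8 CPM in cKO;S/S. Its log2 difference was 0.31 (SE 0.104, adjusted p = 0.165, edgeR). Rpl10, which joins the large subunit in its last cytoplasmic step, stood at 155, 125, 151 and 130 CPM and at 116, 97.1, 124 and 108 CPM (log2 difference 0.33, SE 0.11, adjusted p = 0.165, edgeR). Rpl38, which in mouse embryos favours translation of Hox transcripts, stood at 57.4, 54.5, 59.8 and 54.4 CPM and at 48.6, 41.6, 52.7 and 48.6 CPM, and Rpl21 stood at 310, 255, 273 and 231 CPM and at 222, 191, 237 and 216 CPM, with overlap for Rpl21 alone. Rpl35a stood in cKO;S/S at 45.4, 36.9, 47.4 and 37.0 CPM, and both it and Rps29 overlapped between the mutant groups (log2 differences 0.32 and 0.29, adjusted p = 0.165 and 0.17, edgeR). The 20 microglia markers had a median of 0.76 in this comparison and the 14 oligodendrocyte markers one of -0.78, with 0 called. The neuron markers had one of -0.71, with 0 of 17 above 0, the astrocyte markers one of 0.15, with 20 of 20 above 0, and the immediate early genes one of 0.46, with 20 of 22 above 0, and 0 were called in each list. Their part in these values was not tested.
The count of members at an unadjusted p under 0.05 leaned on single libraries, while the direction of most members did not. The 25 members higher at an unadjusted p under 0.05 became 8 without cKO;S/S replicate 16, 8 without cKO;S/+ replicate 10, 11 without cKO;S/+ replicate 8 and 15 without cKO;S/S replicate 18. The count rose to 37 without cKO;S/S replicate 17 and to 32 without cKO;S/+ replicate 9. The median of 0.18 became 0.11 without cKO;S/S replicate 16, in which members were lowest, and 0.23 without cKO;S/S replicate 17. These were its extremes, and 74 to 78 members lay above 0 in the fits that left out 1 library.

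Other genes of the translation machinery were set beside the members, from lists of known roles, in cKO;S/+ against ctrl-2. Of 3 ribosomal proteins that the naming pattern does not match, Fau, which encodes a fusion of a ubiquitin-like domain with a small subunit protein, was called higher (log2 fold change 0.56, SE 0.151, adjusted p = 0.042, edgeR), and the median of the 3 was 0.28. Of 12 other transcripts that start with a pyrimidine tract, 1 was called higher, Gltscr2 (log2 fold change 0.26, adjusted p = 0.0386, edgeR), and the median was 0.19. Pabpc1, the poly(A)-binding protein, had 0.36 (adjusted p = 0.0826, edgeR).
The other lists had medians closer to 0. The 77 mitochondrial ribosomal protein genes had a median of -0.01 with 0 called in either direction, where 3 were higher and 2 lower at an unadjusted p under 0.05. Of 34 initiation factors 0 were called higher and 1, Eif1ax (log2 fold change -0.24, adjusted p = 0.0319, edgeR), lower, with a median of 0.03. Among 65 genes of ribosome biogenesis 0 were called higher and 1, Dkc1 (log2 fold change -0.30, adjusted p = 0.0342, edgeR), lower, with a median of 0.07.
The 10 elongation factors had a median of 0.08 and the 28 genes of the mTORC1 pathway one of 0.01, with 0 called in both. Eef1a1, which brings transfer RNA to the ribosome, had a log2 fold change of 0.26 (adjusted p = 0.212, edgeR). The difference between the members and these lists was not tested. With the 2 groups alone in the fit, Fau, Gltscr2, Eif1ax and Dkc1 missed the threshold (adjusted p = 0.0611, 0.0656, 0.0596 and 0.0541, edgeR), and Gltscr2 also did with the length trend removed (0.0539). Of the 12 fits that left out 1 library, 7 lost the call for Fau, 7 for Gltscr2, 7 for Eif1ax and 6 for Dkc1, among them those without ctrl-2 replicate 4, 6 or 7 and without cKO;S/+ replicate 8 or 10, and their adjusted p reached 0.144, 0.138, 0.0871 and 0.0952.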

How the data were processed

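Astrocyte RNA of 12 libraries, 4 per genotype, was analysed; groups follow the genotype labels. The deposited raw counts per gene were made by the authors, with reads checked in FastQC 0.11.5, aligned to mm10 in STAR 2.7.10a and counted with Subread 2.0.3 (featureCounts), and edgeR 4.2.1 is also named, per the submitters' processing notes. The annotation, the strand setting and the handling of reads with several matches were not given in the sources used here, and genes with few counts were left out by the authors. The log2 CPM and log2 fold changes, the signed fold changes (a score), the p-values and false discovery rates of the authors' own comparisons were deposited too and were not used. The deposited exonic length in bases was used for levels per kilobase.

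Counts were tested with edgeR 4.0.16 in R 4.3.3 (limma 3.58.1, DESeq2 1.42.0): filterByExpr (minimum count 10, minimum total 15, which removed 0 genes), TMM, 1 quasi-likelihood fit of 12 libraries, two-sided, with Benjamini-Hochberg adjustment over 15089 genes (threshold 0.05). The standard error was derived from the fold change and the F statistic. The marker and gene set means in log2 CPM used a prior count of 2. The test was checked on simulated counts with each gene drawn on its own. That check does not cover the movement that the members share. The members and lists were chosen with earlier results of these data known. Values in each library are given for up to 6 members per comparison by unadjusted p, the 3 highest and 3 lowest per kilobase, the paralogs and their counterparts, the stalk proteins, and Rpl5 and Rpl11.

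Coding sequences came from GENCODE M21 and start regions from RefSeq (GRCm38.p6). The 75-base measure replaced one on whole transcripts, which had been tried first. Alternatives were other normalizations, filters and tests, the 2 groups alone, marker covariates, removal of the trend on length and leaving out each library. Rpl26 and Rpl30 were not analysed here. Figures were drawn with matplotlib 3.10.9. The outlier result of 1 further member is not reported here.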

Additional observations from a re-analysis of the deposited data

Results flagged for a closer look

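Dixon's ratio was computed for 79 members and the summed share of all 80 within each group of 4 libraries. It marked 6 of 240 groups, a smaller share than the about 1 in 20 that chance marks. The members move together, so these groups are not independent. In cKO;S/S, replicate 16 was far below the other libraries for Rpl22 (96.3 CPM), Rpl8 (169 CPM) and Rps26 (75.3 CPM). In cKO;S/+, replicate 8 was far above the others for Rpl31 (101 CPM), Rps14 (91.1 CPM) and Rpl34 (1.56 CPM). These are the libraries in which most members were lowest and highest of their group.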

How the results depend on the processing

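No paired analysis was possible because the groups share no replicate numbers.

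For cKO;S/+ against ctrl-2, 3 members were called higher in the reported fit, 13 by the likelihood ratio test, 15 by DESeq2, 7 with the length trend removed, 0 with the microglia, oligodendrocyte or immediate early gene covariate, and 0 to 16 when each library was left out. Of all genes 890, 1219, 1306 and 911 were called higher in the first 4 of these fits, and 0 with each covariate. By limma-voom 2 members were called higher, beside 786 of all genes. The median of 0.22 became -0.051 with the microglia markers and -0.091 with the immediate early genes. Under the covariates for microglia and for immediate early genes, these log2 fold changes changed sign: Rpl12 -0.048 and -0.061, Rplp2 -0.033 and -0.028, Rpl5 -0.14 and -0.17, Rpl11 -0.073 and -0.13, Rpl29 -0.38 and -0.35, Rps4l 0.0049 and 0.025, Rpl3 -0.045 and -0.076, Rpl7 -0.065 and -0.091, Rpl22 -0.065 and -0.087, Rps4x -0.10 and -0.18, Fau -0.015 and -0.0071, Pabpc1 -0.020 and -0.046, Eef1a1 -0.085 and -0.11. With the microglia markers alone Rplp1 did (-0.011), and with the immediate early genes alone Rpl10a (-0.011), Rpl35a (-0.11) and Rpl3l (-0.044). Both covariates differed with genotype, so these fits cannot separate them from it, and the cause was not tested. When each library was left out, Rpl3l ran from -0.084 to 0.28, Rpl7l1 from -0.085 to 0.043 and Rps4l from -0.093 to 0.0033.

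Rpl10a narrowly missed the threshold with upper quartile scaling (log2 fold change 0.29, adjusted p = 0.0556, edgeR) and with limma-voom (0.33, adjusted p = 0.0507). It also did with the length trend removed (0.298, adjusted p = 0.0529, edgeR). Rpl13a narrowly missed it with the 2 groups alone (log2 fold change 0.44, adjusted p = 0.0529, edgeR). Restricted to members with at least 50% unique coding stretches, an alternative chosen after seeing the data, the medians of the 3 comparisons were 0.20, 0.017 and 0.18.

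For cKO;S/S against ctrl-2, 0 members were called in every fit; the median of 0.03 became -0.14 with the immediate early genes, and Rpl3l ran from -0.38 to 0.017 when each library was left out. For cKO;S/+ against cKO;S/S, 0 to 3 members were called higher when each library was left out, and the median of 0.18 became -0.010 with the microglia markers and 0.041 with the immediate early genes. The share of counts in cKO;S/+ was 1.07% of a total without Rn45s. Over all 12 libraries Rplp1 stood at 431.7 and Rps27 at 2.38 CPM per kb.

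Depth was ample for most members, and for Rps27, Rpl34 and Rpl3l few reads limit every statement.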
